A study of Mus musculus with 16 samples.

Results

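The acyl-CoA thioesterases described here are Acot1, Acot2, Acot7, Acot8, Acot9, Acot11 and Acot13, 7 genes of the 57143 in the deposited table, found by their symbols. The table holds 13 genes whose symbol begins with Acot, and 16866 genes passed the filter used for testing, a mean of 0.5 TPM over all libraries (TPM are read counts divided by gene length and scaled to the same total in every library). All 7 members passed it. The genes were selected on family membership and on measured values: earlier results of these data were known, and the TPM and fold changes of Acot1 and Acot2 at 24h were among the values they were chosen by. Every comparison that uses the 24h libraries is therefore given for the members as values, fold changes and standard errors (SE) without a p-value, while 3h against 0h and 7d against 0h carry adjusted p-values.

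The series sequenced polyA RNA from left ventricles of C57BL/6 mice, all male, taken 0h, 3h, 24h and 7d after an abdominal operation under sevoflurane, an inhaled anaesthetic. S100A8/A9 and myocardial injury after non-cardiac surgery are named in the title. There were 4 libraries at each time, 16 in all, and each carries the label of surgery, 0h included. The labels name no genetic change, give no age and leave unsaid if each library is its own animal, so a p-value here measures the spread between samples, which may be technical. Libraries held 8313655 to 12893551 counts.

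Acyl-CoA thioesterases split acyl-CoA into a free fatty acid and coenzyme A (CoA), the reverse of the step that acyl-CoA synthetases catalyse. In heart muscle, which draws much of its energy from fatty acids, acyl-CoA is the form in which fatty acids are carried to carnitine, stored or oxidised. The family holds unrelated folds: the type I enzymes, Acot1 and Acot2 among them, are alpha/beta hydrolases, and the type II enzymes, which include Acot7, Acot8, Acot9, Acot11 and Acot13, carry hotdog domains. Acot1 and Acot2 are textbook target genes of PPARA, the nuclear receptor that senses fatty acids.

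Acot1 (ENSMUSG00000072949) lies on the plus strand at chr12:84009490-84018371 and Acot2 (ENSMUSG00000021226) at chr12:83987861-83993873, also on the plus strand (GRCm38, GENCODE M21). They open a row of 6 type I genes, in the order Acot2, Acot1, Acot4, Acot3, Acot5 and Acot6, that spans 123.5 kb. Over 1236 aligned coding bases the transcripts Acot1-201 and Acot2-201 were 95.3% identical, with 58 differing bases and a longest shared run of 273 bases. Acot3 and Acot5 were 83.9% and 83.2% identical to Acot1, and Acot4 and Acot6 were 74.6% and 74.5% identical to it. The likeness matters for the values below, because reads from a shared stretch cannot be given to one gene with certainty. Of the windows of 100 bases along Acot1-201, 21.9% also occur in another gene's transcripts, and of those along Acot2-201, 17.1% occur in Acot1. With windows of 50 bases, 33.6% along Acot1-201 and 27.7% along Acot2-201 occur in another gene's transcripts. How the counting treated such reads is not given in the sources used here, so the split of reads between Acot1 and Acot2 is uncertain.

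The sequences of the pair show where they differ. The Acot2 coding sequence begins with 123 bases before the base that aligns with the start of Acot1, which encode the leader that takes the protein into the mitochondrial matrix, whereas Acot1 is cytosolic. That leader is printed first, followed by the aligned coding window of 120 bases with the most differences (14, in capitals) and a window of the same length with 0 differences, which is identical in both genes. The sequences are from the GENCODE M21 transcripts on GRCm38, 5′ to 3′.
Acot2 leader, coding bases 1 to 123: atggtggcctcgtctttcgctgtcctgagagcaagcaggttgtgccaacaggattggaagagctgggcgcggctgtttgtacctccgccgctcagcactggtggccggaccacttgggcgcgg
Acot1, coding bases 767 to 886: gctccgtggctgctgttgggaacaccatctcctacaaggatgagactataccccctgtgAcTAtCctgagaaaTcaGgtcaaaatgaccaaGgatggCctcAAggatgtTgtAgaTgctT
Acot2, coding bases 890 to 1009: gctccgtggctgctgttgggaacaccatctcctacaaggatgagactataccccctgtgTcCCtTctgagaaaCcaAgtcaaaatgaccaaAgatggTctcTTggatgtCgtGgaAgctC
Acot1, coding bases 397 to 516, and Acot2, coding bases 520 to 639: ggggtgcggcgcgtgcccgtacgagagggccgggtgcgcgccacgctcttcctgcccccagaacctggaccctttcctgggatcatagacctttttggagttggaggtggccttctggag

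Acot1 was higher at 24h than at any other time. Its level was 22.5, 23.0, 11.9 and 18.3 TPM in libraries 1 to 4 of 0h, and 15.96, 21.9, 19.7 and 23.5 TPM in those of 3h. At 24h the libraries held 120, 92.9, 58.7 and 101 TPM, and at 7d they held 22.2, 22.1, 17.99 and 14.0 TPM. Each of the 4 libraries of 24h lay above each of the 12 others, and the ranges of 0h, 3h and 7d overlapped. The means were 18.9 ± 5.13 TPM at 0h, 20.3 ± 3.27 at 3h, 93.0 ± 25.6 at 24h and 19.1 ± 3.93 at 7d (SD, n = 4). In edgeR's fit Acot1 was 5.78-fold higher at 24h than at 0h (log2 fold change 2.53, SE 0.27) and 4.8-fold higher than at 3h (2.26, SE 0.26). From 24h to 7d its log2 fold change was -2.43 (SE 0.26).

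The SD of Acot1 was largest at 24h, but relative to the mean it was 27.5%, beside 27.1% at 0h. Library 3 of 24h held the lowest level of that group, 58.7 TPM, still more than 2-fold above the highest level outside 24h, 23.5 TPM. Without it, the log2 fold change of Acot1 against 0h was 2.73, and over all 8 libraries left out in turn it ran from 2.35 to 2.73.

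Acot2, the mitochondrial enzyme, was higher at 24h as well, from a higher level and by a smaller factor. Libraries 1 to 4 held 126, 119, 109 and 90.6 TPM at 0h and 67.8, 104, 96.9 and 105 TPM at 3h. At 24h they held 169, 186, 177 and 197 TPM, and at 7d 103, 75.6, 86.1 and 106 TPM. The 24h libraries, with a mean of 182 ± 11.9 TPM (SD, n = 4), lay above every library of the other times, while those of 0h, 3h and 7d overlapped. Means at 3h and 7d were 93.4 ± 17.4 and 92.4 ± 14.1 TPM (SD, n = 4), beside an SD of 15.3 at 0h. Against 0h the fit gave 1.92-fold at 24h (log2 fold change 0.94, SE 0.12), against 3h 2.01-fold (1.01, SE 0.12), and from 24h to 7d a log2 fold change of -1.11 (SE 0.12).

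**Figure D1:**
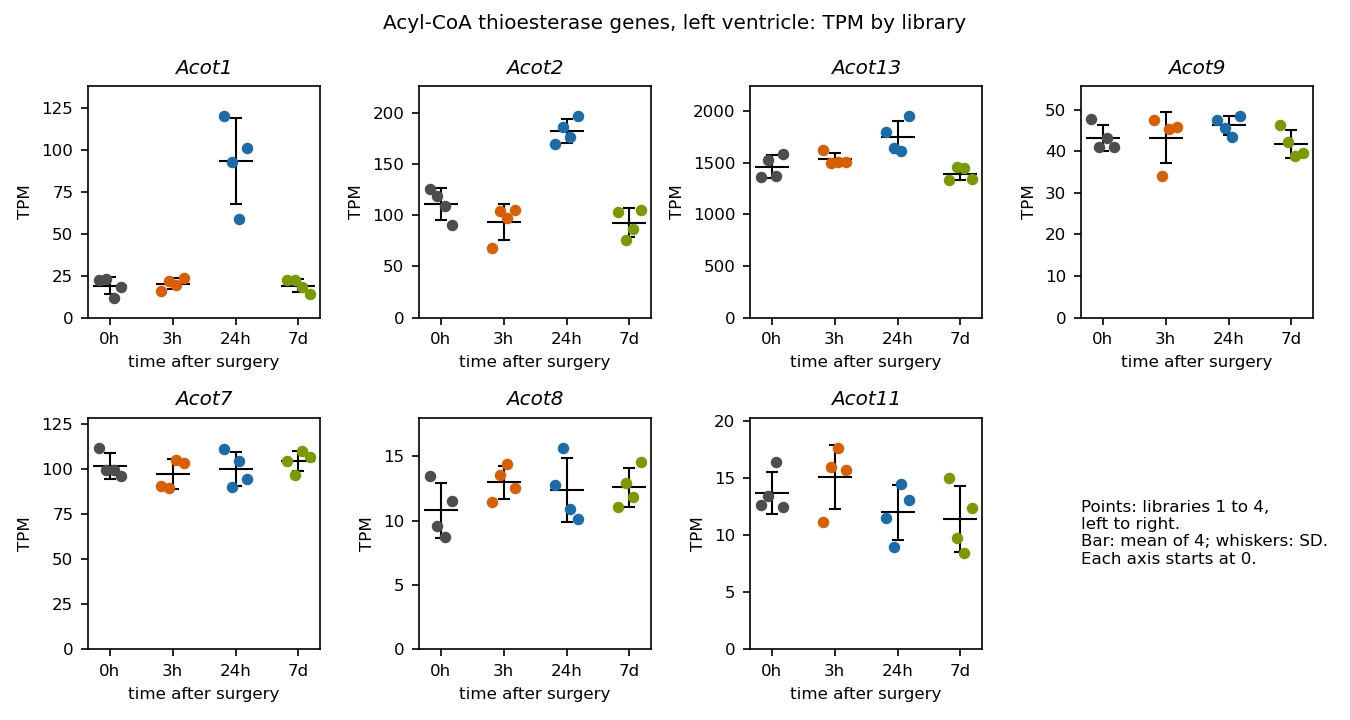
TPM of the 7 genes (vertical axes, each from 0) in each library at 0h, 3h, 24h and 7d after surgery (horizontal axes); points are libraries 1 to 4 from left to right, the bar is the mean of 4 and the whiskers are the SD. The 24h points of Acot1, Acot2 and Acot13 lie above all 0h points, and those of the other genes overlap the 0h points.

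Acot1 took a larger part of the pair's reads at 24h, a difference given as a description. Of the counts summed over Acot1 and Acot2, Acot1 took 16.4% to 26.5% at 0h, 26.6% to 29.6% at 3h, 37.2% to 55.9% at 24h and 19.1% to 34.3% at 7d. The 24h shares lay above all others, and the ranges of 0h and 3h did not overlap, with 26.49% as the highest share at 0h and 26.58% as the lowest at 3h. On the TPM scale Acot1 stood at 17.1% ± 4.21 of Acot2 at 0h and 51.4% ± 15.4 at 24h (SD, n = 4). TPM divides by the gene length in the table, 3919 bases for Acot1 and 2196 for Acot2, and transcript Acot1-201 has only 2272 bases, so the levels of Acot1 relative to other genes depend on the length taken. The change in the share between times does not depend on it.

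**Figure D2:**
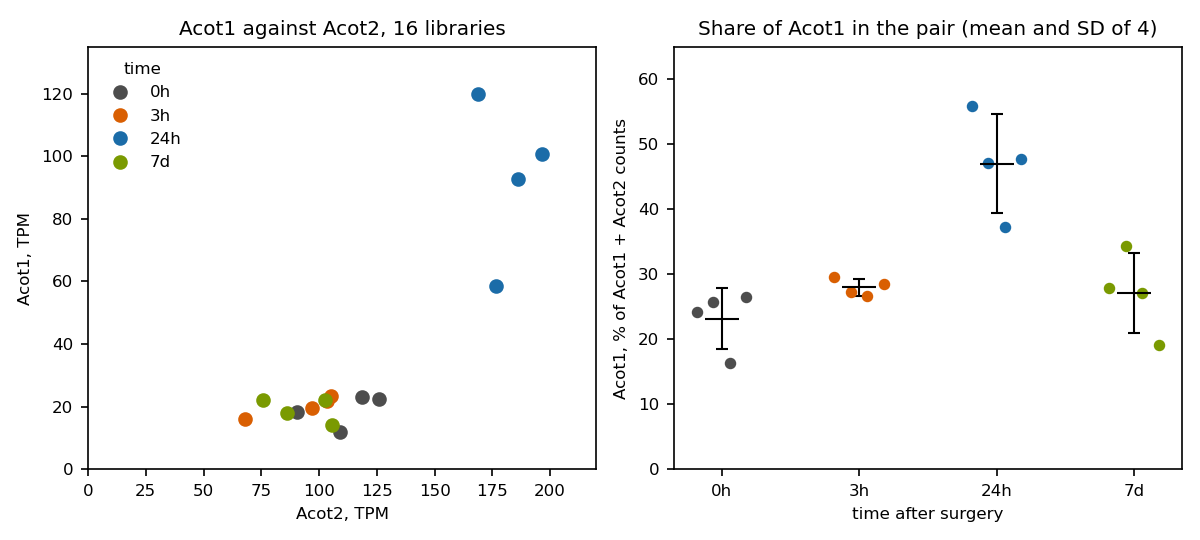
Left: Acot1 TPM (vertical axis) against Acot2 TPM (horizontal axis), 1 point per library, coloured by time. Right: Acot1 counts as a percent of Acot1 plus Acot2 counts in each library by time, with mean and SD of 4; the 24h libraries reach 37.2% to 55.9% and the 0h libraries 16.4% to 26.5%.

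The stretches upstream of both genes were compared because the pair moved together. RefSeq promoter windows matched 6 of the 7 members; Acot13 was not matched. The 250 bases before the RefSeq start of each gene (GRCm38.p6, plus strand) share a run of 9 bases at most, in capitals, in contrast to the coding sequences. They are Acot1 at chr12:84009252-84009501 and Acot2 at chr12:83987611-83987860.
Acot1 upstream: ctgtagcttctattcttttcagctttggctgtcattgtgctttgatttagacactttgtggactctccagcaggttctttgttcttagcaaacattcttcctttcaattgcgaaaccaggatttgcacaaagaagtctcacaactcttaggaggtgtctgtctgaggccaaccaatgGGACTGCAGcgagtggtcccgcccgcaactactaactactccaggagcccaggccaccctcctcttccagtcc
Acot2 upstream: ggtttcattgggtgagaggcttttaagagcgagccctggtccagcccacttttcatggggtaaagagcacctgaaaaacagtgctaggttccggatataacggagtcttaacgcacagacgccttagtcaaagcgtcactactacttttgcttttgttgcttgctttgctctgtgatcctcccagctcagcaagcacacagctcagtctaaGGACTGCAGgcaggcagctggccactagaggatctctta
A direct repeat, 2 copies of AGGNCA on 1 strand with 1 base between them, a spelling of the element that PPAR and RXR bind as a pair, was looked for on both strands in windows from 250 bases before to 50 after the start. It was in 0 of the matched members' windows and in 125 of all 32851 windows (0.38%). The shorter AGGTCA, which some copies of the repeat contain, was likewise in 0 of the members' windows and in 16.26% of all. These counts say only that the letters are not in these windows.

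Acot13, also known as Them2, a small enzyme associated with mitochondria, was by far the most abundant member per length. Its libraries held 1360, 1523, 1374 and 1588 TPM at 0h and 1624, 1497, 1506 and 1508 TPM at 3h. At 24h they held 1798, 1643, 1613 and 1952 TPM, and at 7d 1336, 1459, 1446 and 1343 TPM. The 24h libraries lay above those of 0h and 7d, but the lowest of them, 1613 TPM, lay below the highest of 3h, 1624 TPM. The log2 fold change at 24h was 0.49 against 0h (SE 0.13) and 0.23 against 3h (SE 0.13), and from 24h to 7d it was -0.46 (SE 0.13). On the TPM scale the difference from 0h was smaller: limma on log2(TPM + 1) gave 0.26. The call at 24h against 0h was lost without library 1 of 0h (log2 fold change 0.43) and without library 4 of 24h (0.38). The call at 7d against 24h was lost without library 1 or 4 of 24h (-0.41 and -0.34), without library 1 or 4 of 7d (-0.42 and -0.43) and in a fit of those 2 groups alone.

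Acot13 (ENSMUSG00000006717; chr13:24817948-24831540, minus strand) made up 78.9% to 86.9% of the summed TPM of the 7 genes in every library. That sum was 1760 ± 96.6 TPM at 0h, 1816 ± 38.5 at 3h, 2198 ± 180 at 24h and 1677 ± 47.6 at 7d (SD, n = 4). The other 6 genes together held 299 ± 27.3 TPM at 0h and 446 ± 28.5 TPM at 24h. Libraries of 24h ranged from 408 to 472 TPM in this second sum and those of 0h, 3h and 7d from 244 to 334 TPM.

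Acot7 (ENSMUSG00000028937; chr4:152178134-152271855, plus strand), a cytosolic enzyme best known from the brain, had the narrowest range of the 7 genes over the 16 libraries. It ran from 95.9 to 112 TPM at 0h, 89.4 to 105 at 3h and 96.6 to 110 at 7d. At 24h its lowest library held 89.9 TPM, and its highest lay below the highest of 0h. Over all times the highest library exceeded the lowest by 1.25-fold, and the log2 fold change at 24h against 0h was 0.20 (SE 0.10), short of the threshold. Its direction was not stable: limma on log2(TPM + 1) gave -0.03.

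Acot9 (ENSMUSG00000025287; chrX:155262443-155297654, plus strand), a mitochondrial enzyme, held 47.6, 41.0, 43.1 and 41.1 TPM at 0h. Its 24h libraries held 47.4, 45.5, 43.4 and 48.4 TPM, which overlap those of 0h. The log2 fold change was 0.32 (SE 0.12) and passed the threshold only when library 3 of 24h was left out (0.39), among the alternatives run. Its intronless copy Acot10, 97.2% identical over 1317 aligned coding bases, had 16 counts over all libraries.

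Acot8 (ENSMUSG00000017307; chr2:164792765-164804882, minus strand), the peroxisomal enzyme, was the lowest of the 7 by its mean, 12.2 TPM, with 46 to 121 counts a library. Its means were 10.8 ± 2.15 TPM at 0h, 13.0 ± 1.29 at 3h, 12.4 ± 2.48 at 24h and 12.6 ± 1.53 at 7d (SD, n = 4), and all ranges overlapped. Its log2 fold change at 24h was 0.40 (SE 0.17). The gene shares 246 exonic bases with Snx21 on the opposite strand, which measured 21.1 TPM, and the strand setting of the counting is not given in the sources used here.

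Acot11 (ENSMUSG00000034853; chr4:106744555-106804998, minus strand), also called Them1, carries a lipid-binding START domain and is best known from thermogenic fat. It measured 13.7 ± 1.83 TPM at 0h, 15.1 ± 2.79 at 3h, 12 ± 2.38 at 24h and 11.4 ± 2.89 at 7d (SD, n = 4), with overlapping ranges. Its log2 fold change at 24h was 0.04 (SE 0.16) and turned negative with library totals in place of scaling factors (-0.08). Fam151a, which overlaps it on the opposite strand by 1263 exonic bases, had 4 counts in all.

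By mean level over the 16 libraries the order was Acot13 (1536 TPM), Acot2 (120), Acot7 (101), Acot9 (43.6), Acot1 (37.8), Acot11 (13.1) and Acot8 (12.2). Over the 16 libraries, Acot13 lay above all the others and Acot7 (at least 89.4 TPM) above Acot9 (at most 48.4 TPM), while the other neighbours in that order overlapped. The order depends on the gene length taken. The table lists 3919 bases for Acot1 and 2273 for Acot9, while transcripts Acot1-201 and Acot9-201 have 2272 and 1752 bases. By the listed lengths, Acot1 changed its place with time. At 0h its highest library, 23.0 TPM, lay below the lowest of Acot9, 41.0 TPM. At 24h its lowest, 58.7 TPM, lay above the highest of Acot9, 48.4 TPM, and its range overlapped that of Acot7.

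At 24h against 0h, 3 of the 7 members passed an adjusted p of 0.05, all higher, where 17.4% of all genes tested passed (9.2% higher and 8.19% lower). The same 3, Acot1, Acot2 and Acot13, had TPM ranges that did not overlap between the groups, as did 21.2% of all genes. The median log2 fold change was 0.40 over the members and -0.01 over all genes tested. Because this contrast was among the values that chose the members, nothing is read from that count.

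At 24h against 3h, 2 of 7, Acot1 and Acot2, passed, both higher, beside 7.58% of all genes (4.03% higher, 3.56% lower). At 7d against 24h, 3 of 7 passed, Acot1, Acot2 and Acot13, all lower, beside 8.08% of all genes (3.74% higher, 4.34% lower). Their ranges did not overlap either, as for 9.42% of all genes. All 7 members had a log2 fold change below 0 in this comparison, with a median of -0.28, but limma on log2(TPM + 1) put Acot7 and Acot8 above 0 (0.06 and 0.04). Both comparisons share the 24h libraries that chose the members, so nothing is read from these counts either.

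At 3h against 0h none of the 7 members passed, beside 5.04% of all genes (1.86% higher, 3.18% lower), and no member's ranges were separate, beside 24.0% of all genes. Acot1 had a log2 fold change of 0.27 (SE 0.27; edgeR adjusted p = 0.592) and Acot2 one of -0.07 (SE 0.12; edgeR adjusted p = 0.78). The lowest edgeR adjusted p was that of Acot8, 0.138, at a log2 fold change of 0.44 (SE 0.17), followed by Acot13 with 0.246 at 0.25 (SE 0.13). For Acot11, Acot9 and Acot7 the edgeR adjusted p-values were 0.255, 0.384 and 0.534. At an unadjusted p under 0.05, edgeR found 1 of 7 (Acot8) and DESeq2 2 of 7 (Acot8 and Acot13), beside 22.1% of all genes in each, and limma on log2(TPM + 1) found 0. After adjustment DESeq2 and limma called 0. A fit of those 2 groups alone called Acot11 and Acot13, at 0.32 and 0.25 on the log2 scale, beside 3224 of 16866 genes.

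At 7d against 0h none passed, beside 0.86% of all genes, and none had separate ranges, beside 9.98%. The edgeR adjusted p was 0.895 for Acot1 (log2 fold change 0.10, SE 0.26) and 0.533 for Acot2 (-0.17, SE 0.12). For Acot13 the log2 fold change was 0.03 (SE 0.13; edgeR adjusted p = 0.947). Those of the other members lay between 0.397 (Acot8) and 0.902 (Acot9). At an unadjusted p under 0.05, edgeR, DESeq2 and limma each found 0 of 7, beside 15.3%, 15.1% and 14.2% of all genes. The 0h libraries are the controls of all comparisons against 0h, whose values are therefore only given side by side.

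**Figure D3:**
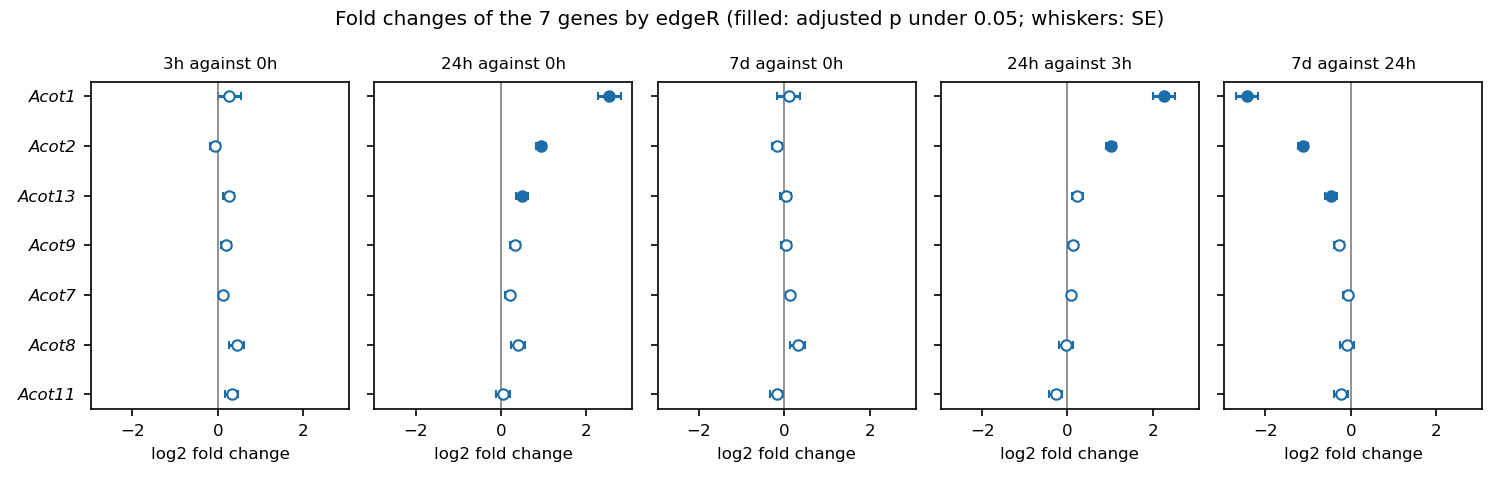
Log2 fold change (horizontal axis) with SE of each member (vertical axis) in 5 comparisons by edgeR; filled points passed an adjusted p of 0.05. Acot1 (2.53) and Acot2 (0.94) lie to the right at 24h against 0h and to the left at 7d against 24h, and no point is filled at 3h or 7d against 0h.

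The scaling of libraries bears on small changes. Of the genes called at 24h against 0h, 52.9% were higher with edgeR's scaling factors, 30.6% with library totals alone and 18.1% by limma on log2(TPM + 1), and the median over all genes tested was -0.01, -0.12 and -0.19 in turn. At 3h the share higher was 36.9%, 24% and 16.8%, with a median of -0.15 by limma, and at 7d against 0h it was 21.4%, 9.66% and 1.89%. At 7d against 24h it was 46.3%, 59.6% and 67.1%. Over the 19 alternatives run, the lowest log2 fold change at 24h against 0h was 2.23 for Acot1, 0.72 for Acot2 and 0.26 for Acot13.

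Of the other thioesterases of the table, Acot6, Acot4 and Acot3 measured 1.70, 0.933 and 0.589 TPM on average. None was called in any of the 5 comparisons. Acot3, with 15 counts or fewer in each library, had a log2 fold change of 1.03 at 24h against 0h (SE 0.46, edgeR adjusted p = 0.117). From 24h to 7d it was -1.42 (SE 0.46, edgeR adjusted p = 0.0587). Acot4 and Acot6 had means of 0.874 and 1.848 TPM at 0h, and of 1.04 and 1.535 TPM at 24h. Acot5, Acot10 and Acot12 had 2, 16 and 4 counts in all and were not tested. The lists of other genes given from here on were chosen with earlier results of these data known, so their calls and p-values are descriptions. The counts of these lists come from the fit with edgeR's scaling factors and were not repeated under the alternatives. Among 8 tested genes of a list of other thioesterases, 0 were higher and 1 was lower at 24h against 0h (median log2 fold change 0.22). Over all genes tested, 9.2% were higher and 8.19% lower. Them6, a gene of the wider thioesterase superfamily, fell from 26.1 ± 2.83 to 16.4 ± 3.39 TPM (SD, n = 4, log2 fold change -0.46, SE 0.16, edgeR adjusted p = 0.0459). From 24h to 7d Them6 rose to 35.5 ± 5.11 TPM (edgeR adjusted p = 0.000231). Ppt1 and Ppt2, lysosomal thioesterases, were not called in any of the 5 comparisons.

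Among the enzymes of the opposite reaction, the acyl-CoA synthetases, 4 of 15 tested were higher at 24h and 1 was lower. The shares of all genes were 9.2% higher and 8.19% lower, and the list's median log2 fold change was 0.13. Slc27a1, a fatty acid transporter with synthetase activity, rose from 85.7 ± 5.57 to 177 ± 21.4 TPM (SD, n = 4; log2 fold change 1.27, SE 0.12, edgeR adjusted p = 9.79e-07). Acsm5, a synthetase for medium-chain acids, rose from 3.97 ± 0.683 to 9.31 ± 1.01 TPM (edgeR adjusted p = 3.37e-05). Acss1, which activates acetate in mitochondria, and Acss3 were the other 2, and Acsl6 fell (log2 fold change -0.78, SE 0.13, edgeR adjusted p = 0.000532). Acsl1, the main long-chain synthetase of the heart, was not called, with 234 ± 19.0 TPM at 0h beside 240.4 ± 54.3 TPM at 24h.

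Of the proteins that bind acyl-CoA and fatty acids, 5 of 9 were higher and 0 lower at 24h (median 0.51), beside 9.2% and 8.19% of all genes. Fabp3, the fatty acid binding protein of heart muscle, rose from 13810 ± 1012 to 18870 ± 563 TPM (SD, n = 4; log2 fold change 0.67, SE 0.13, edgeR adjusted p = 0.00132). Dbi, the acyl-CoA binding protein, rose from 247 ± 37.8 to 330 ± 56.8 TPM (edgeR adjusted p = 0.015). In the carnitine shuttle, 3 of 8 were higher and 0 lower (median 0.20), beside the same 9.2% and 8.19% of all genes. They were Cpt2, the inner-membrane transferase (log2 fold change 0.72, SE 0.14), Slc25a20, the carnitine carrier (0.60, SE 0.11), and Crot, the peroxisomal octanoyl transferase (0.46, SE 0.12). Cpt1a and Cpt1b, the outer-membrane entry enzymes, were not called.

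Of the CoA synthesis and breakdown genes, 1 of 13 was higher and 1 lower at 24h (median 0.14), near the 9.2% and 8.19% of all genes. Nudt7, a peroxisomal hydrolase that breaks down CoA, rose from 39.4 ± 2.06 to 67.4 ± 6.31 TPM (SD, n = 4; log2 fold change 1.0, SE 0.11, edgeR adjusted p = 6.84e-06). Pank3, a pantothenate kinase at the start of CoA synthesis, fell from 25.9 ± 1.76 to 16.3 ± 4.03 TPM (edgeR adjusted p = 0.0132). Nudt7 returned to 39.6 ± 5.28 TPM at 7d (log2 fold change from 24h -0.90, SE 0.11, edgeR adjusted p = 1.95e-05).

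Beta-oxidation genes called at 24h against 0h were on the higher side: 10 of 18 mitochondrial genes (median 0.37) and 6 of 13 peroxisomal genes (median 0.20), with 0 lower in each. Of all genes, 9.2% were higher and 8.19% lower. Small changes among them depend on the scaling: of all genes called, 52.9% were higher in this fit and 18.1% by limma on log2(TPM + 1). Acaa1a, called higher at a log2 fold change of 0.33 (SE 0.09), held 44.8 to 53.2 TPM at 0h and 46.6 to 59.3 TPM at 24h. Eci2, an enoyl-CoA isomerase, rose from 105 ± 2.92 to 162 ± 16.1 TPM (SD, n = 4; log2 fold change 0.85, SE 0.11, edgeR adjusted p = 4.16e-05). At 3h and at 7d against 0h, edgeR called 0 genes of the synthetase, binding protein, carnitine shuttle, CoA and beta-oxidation lists. Of all genes it called 5.04% and 0.86%.

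Of 15 other target genes of PPARA tested, 8 were higher and 0 lower at 24h, with a median of 0.60, beside 9.2% and 8.19% of all genes. Pnpla2, the lipase that opens triglyceride stores, went from 353 ± 36.9 to 915 ± 25.7 TPM (SD, n = 4; 1.60 on the log2 scale, SE 0.13, edgeR adjusted p = 1.4e-07). Plin2, a lipid droplet coat protein, and Lpl, which releases fatty acids from circulating fat, rose with log2 fold changes of 1.10 (SE 0.22) and 0.73 (SE 0.16). From 24h to 7d, 10 of the 15 fell and 0 rose (median -1.04), beside 4.34% of all genes lower and 3.74% higher. At 3h against 0h, 2 were higher, Plin5 and Ucp2, beside 1.86% of all genes. At 7d against 0h none was called, beside 0.86%.

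Of 14 PPAR and RXR receptors and coactivators tested, 0 were higher and 2 lower at 24h (median -0.25), beside 8.19% of all genes lower: Ppargc1b, a coactivator, fell from 19.98 ± 2.27 to 7.82 ± 4.11 TPM (SD, n = 4; edgeR adjusted p = 0.0158), and Rxrg from 110.9 ± 5.27 to 76.4 ± 18.2 TPM (edgeR adjusted p = 0.0368). The level of Ppara, 32.8 ± 6.19 TPM at 0h and 15.4 ± 9.60 TPM at 24h, did not pass (log2 fold change -0.91, SE 0.30, edgeR adjusted p = 0.0523). Already at 3h against 0h, 2 of the 14 were lower and 0 higher, beside 3.18% and 1.86% of all genes. They were Ppargc1b, at 7.52 ± 1.09 TPM at 3h (edgeR adjusted p = 0.0308), and Ncor1 (edgeR adjusted p = 0.0231). None was called at 7d against 0h, beside 0.86%.

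**Figure D4:**
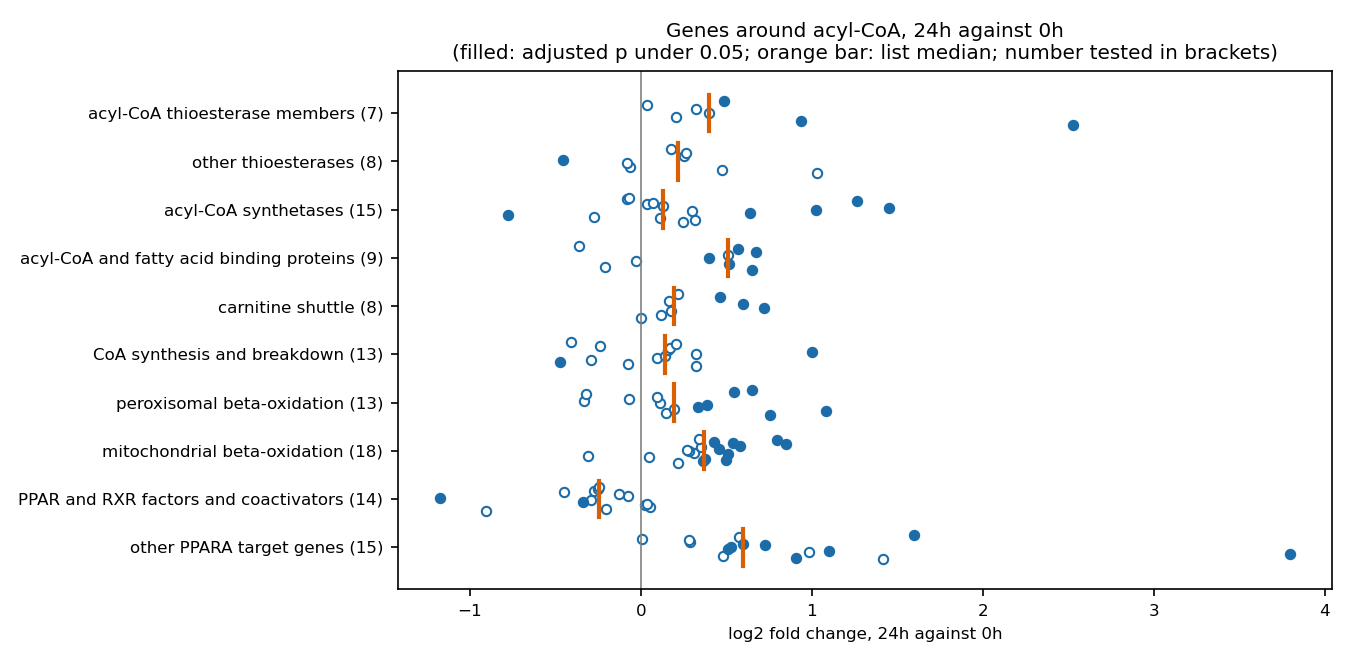
Log2 fold change at 24h against 0h (horizontal axis) of each tested gene of the 7 members and 9 lists around acyl-CoA (vertical axis, number tested in brackets); filled points passed an edgeR adjusted p of 0.05 and the orange bar is the list's median. The medians run from -0.25 for the receptors and coactivators to 0.60 for the other PPARA target genes, and Acot1 lies at 2.53.

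Library 3 of 24h, the lowest of its group for Acot1, was also the lowest of the 4 for 8 of the 15 other PPARA target genes, beside 18.2% of all genes tested, and the highest for 11 of the 14 receptors and coactivators, beside 36.2% of all genes. It was also the highest for 13 of 18 mitochondrial and 8 of 13 peroxisomal beta-oxidation genes. Pdk4, which restrains glucose oxidation, measured 2223, 1076, 483.9 and 1618 TPM in libraries 1 to 4 of 24h, and Ppara 9.37, 12.7, 29.6 and 9.86 TPM. In that library Acot2 (177 TPM) lay within the range of the other 3. Pdk4 and Ppara were named here after their values were seen, and no cause of the difference was tested.

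The genes whose pattern over the 16 libraries was most like each member's were ranked by Pearson's r of log2(TPM + 1) among 9545 genes with a mean of 5 TPM or more. All points share the 16 libraries and their 4 times, so r is a description. For Acot1 these were Cdo1 (r = 0.951), which oxidises cysteine, Pcp4l1 (0.946), Slc27a1 (0.944), Fah (0.944), which ends tyrosine breakdown, and Ypel3 (0.943). For Acot2 they were Klhl22 (0.949), Fkbp10 (0.922), the fatty acid transporter Cd36 (0.916), Pigu (0.907) and the peroxisomal enzyme catalase, Cat (0.905). Acot13 lay closest to Cox6c (0.891) and Cox7b (0.874), subunits of cytochrome c oxidase, followed by Hsbp1l1 (0.867), Washc3 (0.865) and Ndufa3 (0.865), the last a subunit of complex I.

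For Acot11 the nearest genes were Slc49a4 (0.891), Arhgap26 (0.876) and Foxo3 (0.849). The highest r was 0.814 for Acot9 (with the pseudogene Rps6-ps4), 0.79 for Acot7 (with Hsd17b4) and 0.744 for Acot8 (with Ap1s1). Among the members themselves, r was 0.85 between Acot1 and Acot2, 0.79 between Acot1 and Acot13 and 0.54 between Acot2 and Acot13. Every other pair lay between -0.33 and 0.42.

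The tissue carried its label: all 10 ventricular cardiomyocyte markers were detected. They summed to 71790 to 75250 TPM at 0h, 69480 to 74820 at 3h, 60290 to 69770 at 24h and 62810 to 83590 at 7d, so the 24h range lay below that of 0h. On the TPM scale the median log2 fold change of all genes tested was also below 0 at 24h against 0h (-0.19 by limma on log2(TPM + 1)). A lower TPM at 24h was therefore not particular to these markers. In bulk tissue, fewer cells of a type and less RNA per cell cannot be told apart. Brown adipocyte markers, which share Ppara, Cox7a1 and Cox8b with heart muscle, summed to 12580 to 15730 TPM at 0h and 13740 to 20630 TPM at 24h, while the defining marker Ucp1 reached 0.461 TPM at most. White adipocyte markers summed to 539 to 752 TPM at 0h and 542 to 1102 TPM at 24h, with Adipoq at most 3.98 TPM in any library. Most of that sum was Fabp4, which alone held 533.2 to 717.5 TPM at 0h and 540.4 to 1095 TPM at 24h. Of 16 hepatocyte markers 15 were in the table and all 15 had a count, and their sum was 6.76 to 11.2 TPM at 0h, 18.3 to 108 at 3h and 6.63 to 29.1 at 24h. Alb stayed at or under 0.54 TPM in the 24h libraries, but at 3h libraries 1 to 4 held 0, 35.6, 28.46 and 5.416 TPM. Libraries 2 and 3 of 3h, those with the most Alb, are left out together in an alternative below. Neutrophil markers, all 12 detected, summed to 11.1 to 13.2 TPM at 0h, 148 to 571 at 3h and 68.8 to 331 at 24h. The part of these markers, those of cardiomyocytes included, in the changes of the members was not tested.

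Myl7, a myosin light chain of the atria, differed widely among libraries. It measured 0, 1.10, 9.59 and 0 TPM at 0h, 0.977, 2.73, 146 and 8.39 TPM at 3h, 63.8, 127, 6.97 and 159 TPM at 24h and at most 0.844 TPM at 7d. The groups overlapped: library 3 of 3h lay within the range of 24h, and library 3 of 24h lay below library 3 of 0h. The sum of the 6 atrial markers overlapped as well, at 493 to 1493 TPM at 0h and 524 to 1059 TPM at 24h. At 3h it was 301 to 790 TPM. At 7d, where no library held more than 0.844 TPM of Myl7, it was 578 to 2808 TPM. Myl7 therefore did not stand for the whole atrial list. With log2 CPM of Myl7 as a covariate, Acot1 stayed called at 24h against 0h (log2 fold change 2.36, SE 0.43), and Acot2 (0.78, SE 0.19) and Acot13 (0.48, SE 0.20) were not called. At 7d against 24h, Acot2 stayed called (-0.95, SE 0.19) and Acot1 (-2.26, SE 0.43) and Acot13 (-0.45, SE 0.21) were not. At 24h against 3h both Acot1 (2.17) and Acot2 (0.93) stayed called. These comparisons use the 24h libraries that chose the members, so nothing is read from these calls. Over all genes, 86 were called at 24h against 0h with that covariate and 2933 without it.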

How the data were processed

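Polyadenylated RNA of the left ventricle was measured in 16 libraries, 4 at each of 0h, 3h, 24h and 7d, grouped by the labelled time. TRIzol extraction, a DNase step and a directional library kit are stated per the labels' protocols. Per the submitters' processing notes, cutadapt, STAR and mm10 were used. Not given in the sources used here: the counting tool, its strand setting and all versions. The authors deposited raw counts, TPM and FPKM per gene. Recomputing TPM from counts and listed lengths gave the deposited values (largest relative difference 5.2e-15), and the FPKM values deposited by the authors were not used. Columns were matched to libraries by time and number, since their prefix differs from that of the titles.

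Tests covered the genes whose mean TPM reached 0.5 (16866 of 57143, holding 99.84% to 99.9% of each library's counts). The test was edgeR's quasi-likelihood F test on TMM-scaled counts (robust, all libraries in 1 fit, no replicate block), with Benjamini-Hochberg adjustment over all genes and a threshold of 0.05. The SE is the log2 fold change divided by the square root of F. Software was edgeR 4.0.16, DESeq2 1.42.0 and limma 3.58.1 in R 4.3.3. On simulated counts for 24h against 0h (16852 genes), edgeR recovered 23.9%, 64.2% and 87.9% of 1.5-, 2- and 4-fold changes, and 10% of its calls were false. Only 67, 67 and 66 genes were changed there, far fewer than the 2933 called in the data. These shares are therefore not the error rates of the real comparison.

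The members and lists were chosen with earlier results of these data known. Named genes were all members, up to 4 genes of smallest p in each list and comparison, and the 5 genes most like each member. Acsl1, Acss3 and Pdk4 at 24h were named after their values were seen. A few list genes named by this rule are not reported here. Of the table's identifiers 90.73% were in GENCODE M21 (GRCm38), which gave coordinates; promoter windows are RefSeq's (GRCm38.p6). Alternatives covered scaling, tool, unit, pseudocount, filter, variance model, samples fitted, a replicate block, Myl7 as a covariate, and leaving out libraries.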

Additional observations from a re-analysis of the deposited data

Results flagged for a closer look

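Of the 28 groups of 4 libraries (7 genes at 4 times), 2 held a library far from the other 3 on the TPM scale, and chance flags about 1 in 20 such groups. In Acot9 at 3h, library 2 was the lowest at 34.13 TPM, while the others held 45.3 to 47.4 TPM, a gap of 0.842 of the group's range. In Acot13 at 3h, library 1 was the highest at 1624 TPM, while the others held 1497 to 1508 TPM, a gap of 0.913 of the range. Neither gene was called at 3h against 0h when that library was left out.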

How the results depend on the processing

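Acot members called changed in 2 settings other than leaving out a library. Fitting only the 2 groups compared gave 2 at 3h against 0h (0 in the fit reported) and 2 at 7d against 24h (3 in the fit reported), and Myl7 as a covariate gave 1 at 24h against 0h and 1 at 7d against 24h (3 in each). Leaving out each library in turn gave 2 to 4 at 24h against 0h, 2 to 3 at 7d against 24h, 2 at 24h against 3h and 0 at 3h or 7d against 0h. The cause was not tested. Comparisons that use the 24h libraries share the values that chose the members, so nothing is read from those counts.

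Directions turned only for fold changes that had not been called. With library totals the log2 fold change was -0.082 for Acot11 at 24h against 0h, and -0.005 for Acot9 and -0.018 for Acot13 at 7d against 0h. By limma on log2(TPM + 1) it was -0.067 for Acot7 and -0.009 for Acot9 at 3h against 0h, -0.025 for Acot7 and -0.189 for Acot11 at 24h against 0h, -0.05 for Acot9 and -0.064 for Acot13 at 7d against 0h, and 0.064 for Acot7 and 0.035 for Acot8 at 7d against 24h. With a pseudocount of 0.1 these were -0.068, -0.009, -0.025, -0.204, -0.051, -0.064, 0.064 and 0.039 in the same order. A filter of mean TPM 5 gave 0 for Acot13 at 7d against 0h. Myl7 as a covariate gave -0.123 for Acot11 at 24h against 0h. Without the libraries 2 and 3 of 3h, Acot8 and Acot9 at 24h against 3h were at 0.008 and -0.04. Leaving out each library in turn gave -0.06 to 0.183 for Acot11 at 24h against 0h, -0.028 to 0.094 for Acot13 and -0.066 to 0.234 for Acot1 at 7d against 0h. It gave -0.141 to 0.028 for Acot2 at 3h against 0h, -0.015 to 0.169 for Acot7 and -0.12 to 0.051 for Acot8 at 24h against 3h, and -0.152 to 0.029 for Acot7 at 7d against 24h.

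A replicate block called 0, 3, 0, 2 and 3 members at 3h, 24h and 7d against 0h, 24h against 3h and 7d against 24h, as without it, with Acot1 at 2.526 at 24h against 0h. Libraries that share a number did not deviate together over all genes (mean r -0.022 over 24 pairs, 0 above 0.1). The labels do not say what the number marks, and a weak pairing or one of few genes cannot be seen this way. The block left 637, 2572, 64, 1069 and 1168 genes called.

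Genes called over the whole table, 850, 2933, 145, 1279 and 1363 in the same order of comparisons, moved by over 1.5 times as follows. Myl7 as a covariate left 187 at 3h, 86 at 24h, 539 at 24h against 3h and 23 at 7d against 24h. Only the 2 groups compared gave 3224 at 3h, 408 at 7d, 812 at 24h against 3h and 354 at 7d against 24h. DESeq2 gave 1299 at 3h and 454 at 7d, no filter 1786 and 735, and limma 53 at 7d (27 with a pseudocount of 0.1). Without the libraries 2 and 3 of 3h there were 351 at 3h and 338 at 24h against 3h. Leaving out each library in turn gave 286 to 585, 1575 to 4262, 27 to 267, 756 to 1644 and 755 to 2407, with a move of over 1.5 times for 7, 3, 6, 5 and 4 of the 8 libraries (at 3h all but library 2 of 3h, at 24h library 1 of 0h and libraries 1 and 4 of 24h, at 7d libraries 1 to 3 of 0h and 2 to 4 of 7d, at 24h against 3h all of 3h and library 1 of 24h, at 7d against 24h libraries 1, 3 and 4 of 24h and 4 of 7d). Depth limits Acot8 most, at 46 to 121 counts a library.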
